A study of Mus musculus with 71 samples.

Results

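The nuclear genes of the mitochondrial respiratory chain and of the ATP synthase were followed across mouse oocytes made in culture, oocyte-like cells induced directly from stem cells and oocytes taken from the ovary. Members were the genes whose symbol begins with Ndufa, Ndufb, Ndufc, Ndufs or Ndufv, with Uqcr, with Cox followed by a digit from 4 to 8 or with Atp5, or is Sdha, Sdhb, Sdhc or Sdhd. The rule found 64 of 15140 genes: 32 of complex I, 3 of complex II, 6 of complex III, 9 of complex IV and 14 of complex V. Complex I counted 7 core subunits, 19 accessory subunits and 6 assembly factors, and Ndufa4l2 was counted with complex IV. None of the 13 mitochondrially encoded subunits was analysed here, and several nuclear ones were not either, so sums are over the listed members and not over whole complexes.

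All libraries carried the strain label C57BL/6 X 129 and held polyA RNA. The in vitro oocytes bore the reporter alleles Blimp1-Venus and Stella-CFP and came from stem cell derived germ cells aggregated with fetal female gonadal somatic cells, with retinoic acid early and the estrogen receptor antagonist ICI182780 later, and were sorted as SC+ cells on day 11 or day 13 of culture. There were 2 libraries each of wild type on both days, of 4 knockouts on day 11 (Figla, Lhx8, Stat3, Sub1) and of 15 knockouts on day 13 (Sohlh1, Nobox, Dynll1, Tbpl2, Ybx3, Ccnk, Kdm1b, Thap7, Noto, Foxr1, Mef2b, Sfr1, Hes6, Ell3, Tcf25). The knockouts are named in the sample titles and the table's column headers and not in the genotype label, and whether a knockout was 1 clone is not stated; the Sohlh1 headers add a label beginning with sg that no source explains. The directly induced oocytes, DIOLs in the titles, came from stem cells of the genotype labelled MGA8, cultured with SCF and Shield1, a ligand that stabilises tagged proteins, or aggregated with gonadal somatic cells, and the labels do not say which protocol a library followed. They were sampled as DIOLs.S (the S is not explained) on days 1, 3, 5, 7 and 14, as DIOLs on days 5, 10, 15 and 25, and after maturation as MII_DIOL, with 2 libraries each. In vivo oocytes at the germinal vesicle (GV) stage, labelled comp or incomp and here called competent and incompetent, carried the reporter alleles too and had 3 libraries each. Their labels give no age, but the table's headers read 3w for the competent and 2w for the incompetent ones, without a word on what these mark. No label says that libraries of a group came from separate cultures or animals, so p-values measure the spread between these libraries.

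Electrons from NADH enter the chain at complex I and those from succinate at complex II. They pass through complex III and cytochrome c to complex IV, which reduces oxygen, and the proton gradient built on the way drives the rotor of complex V, whose F1 head makes ATP. Growing oocytes multiply their mitochondria and feed on pyruvate supplied by granulosa cells, and complex IV has subunit forms restricted to certain tissues or oxygen levels. Many of these genes have processed copies in the mouse genome, made when an mRNA was reverse transcribed and inserted elsewhere.

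Sequence copies matter for reading these levels, because a read that fits a gene and its copy can be counted in more than 1 way. A copy was measured as the percent of a gene's coding 31-mers found in another annotated gene. Of the 64 members 13 had at least 50% of their coding sequence elsewhere, 14 had 5 to 50% and 37 under 5%. The 6 genes below hold most of the largest changes in the libraries that stood apart, or carry the most copied sequence. For each, the first 90 coding bases are given in lower case from the start codon, with the copy's sequence where it differs and the differing bases in capitals. Atp5g1 and Atp5g2, which with Atp5g3 encode the same mature c subunit of the ATP synthase rotor, and Ndufb4, an accessory subunit of complex I, had copies that were identical over this stretch.
Atp5g1, also read by Gm10039: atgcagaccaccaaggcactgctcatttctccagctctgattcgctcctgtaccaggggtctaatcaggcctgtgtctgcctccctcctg
Atp5g2, also read by Gm10175: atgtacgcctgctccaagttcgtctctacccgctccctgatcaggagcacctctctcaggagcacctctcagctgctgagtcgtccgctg
Ndufb4, also read by Ndufb4c: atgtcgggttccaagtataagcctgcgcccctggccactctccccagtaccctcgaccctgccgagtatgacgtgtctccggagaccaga
Atp5h: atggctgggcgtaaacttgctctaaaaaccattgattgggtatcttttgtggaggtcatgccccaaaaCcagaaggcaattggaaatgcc
Atp5h copy Gm10250: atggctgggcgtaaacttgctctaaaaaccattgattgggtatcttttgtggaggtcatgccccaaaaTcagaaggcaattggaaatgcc
Ndufs5: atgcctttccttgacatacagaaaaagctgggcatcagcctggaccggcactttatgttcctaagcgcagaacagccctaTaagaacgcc
Ndufs5 copy BC002163: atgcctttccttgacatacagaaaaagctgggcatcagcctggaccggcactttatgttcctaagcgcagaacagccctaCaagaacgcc
Uqcrb: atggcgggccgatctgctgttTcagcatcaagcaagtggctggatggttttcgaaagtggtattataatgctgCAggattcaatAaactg
Uqcrb copy Gm16089: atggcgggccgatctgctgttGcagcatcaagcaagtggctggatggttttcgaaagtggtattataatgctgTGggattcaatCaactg
In GRCm38 with the GENCODE M21 annotation, Atp5g1 lies at chr11:96068852-96075670 and its processed pseudogene on the same chromosome matched 99.8% of 408 coding bases. Atp5g2 lies at chr15:102662864-102672352 and matched Gm10175, on chromosome 7, over all 438 coding bases, and Ndufb4 (chr16:37647170-37654453) matched Ndufb4c, on chromosome 15, over 387. Atp5h, subunit d of the stalk (chr11:115415689-115419962), differed from its copy at 1 of the 90 bases shown, Ndufs5, an accessory subunit of complex I (chr4:123712710-123718202), at 1, and Uqcrb, a subunit of complex III (chr13:66900617-66905378), at 4.

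The Figla and Sohlh1 knockout libraries and all DIOL libraries before maturation stood apart in Atp5g1, Atp5g2 and Atp5h. Atp5g2 read 2.26 and 13.3 in the deposited unit, TPM (transcript abundance scaled for gene length and library size), in day 11 wild type and 0.44 and 2.59 in day 13 wild type. In the 34 libraries of the other 17 knockouts it read 0 to 3.83 TPM, but 164 and 183 in the Figla knockout, 355 and 392 in the Sohlh1 knockout and 77.1 to 168 in the 18 DIOL libraries before maturation. Atp5g1 read 5.10 to 49.1 TPM in those 34 libraries, 239 and 232 in the Figla knockout, 439 and 357 in the Sohlh1 knockout and 180 to 352 in DIOLs. Atp5h read 74.1 to 268 TPM in the 34 libraries, 785 and 770 in the Figla knockout, 1075 and 1345 in the Sohlh1 knockout and 436 to 1040 in DIOLs. For these 3 genes no Figla, Sohlh1 or DIOL value overlapped with the 34 libraries or with wild type. BC002163, the copy of Ndufs5, is the only copy with values of its own here: it moved with its gene, from 57.2 and 59.1 TPM in day 13 wild type to 113 and 283 in the Sohlh1 knockout, where Ndufs5 went from 50.0 and 38.2 to 99.9 and 334. The ratio of copy to gene was 0.517 to 0.53 over the GV libraries and 0.846 to 1.677 over those of the 30 groups other than GV and matured DIOLs. The Figla and Sohlh1 titles carry a prefix, IVD, that no other title has, and the running numbers in those titles fall among those of the DIOLs and apart from the wild types and the other knockouts. No source says whether they were made or processed like those, so knockout and processing cannot be told apart. How the authors treated reads with several matches is not given in the sources used here, so gene and copy cannot be told apart for members with long copied stretches, and whether copies account for the high values was not tested. Changes in these libraries are therefore also given by class of copied sequence, while summed TPM are over all members, copied ones included.

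**Figure D1:**
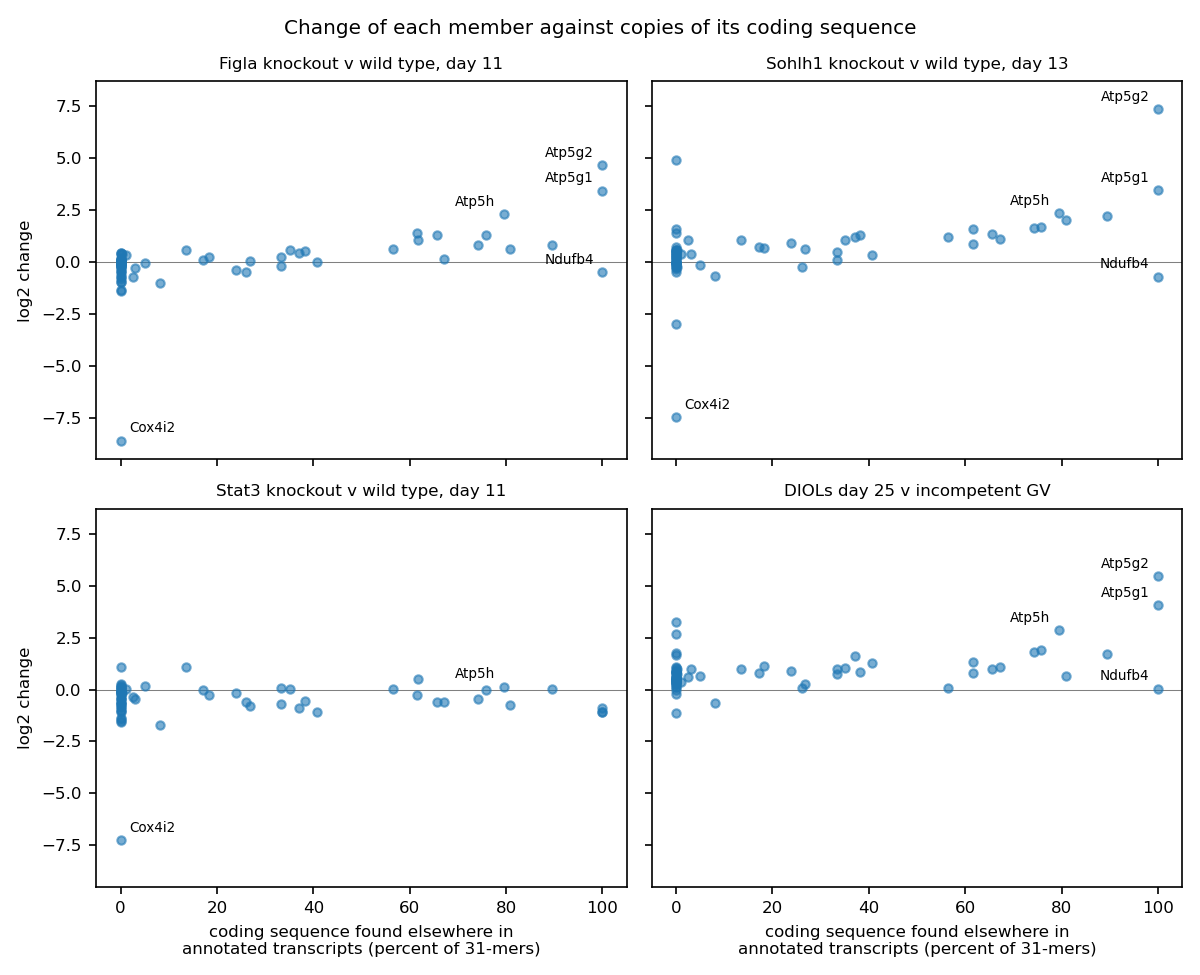
Log2 change of each of the 64 members (y axis) against the percent of its coding 31-mers found in another annotated gene (x axis), in 4 comparisons, 1 point per gene. In the Figla and Sohlh1 knockouts and in day 25 DIOLs Atp5g1, Atp5g2 and Atp5h, at 79 to 100% copied, lie above the other copied genes while Ndufb4, also 100% copied, does not; in the Stat3 knockout the copied genes lie among the others, and Cox4i2, with no copied sequence, is lowest.

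Each comparison was fitted on all genes that passed a filter of at least 1 TPM in at least 2 libraries (12306 in vitro, 11603 in DIOLs and GV oocytes, 12689 over all), which all 64 members passed. A gene rose or fell where limma's moderated test on log2(TPM + 1) gave an adjusted p under 0.05 and the log2 change was at least 1, and passed the wider rule where the adjusted p alone was under 0.05. Fold changes on this scale understate those of low genes. The SE beside a change is the fitted one, and n is 2 libraries per group (3 for GV). Scale differed between libraries, so each median is given beside that of all genes tested, and counts after median-of-ratios rescaling are given where the split between higher and lower moved. Percentages of all genes are those before rescaling. Counts over all genes after rescaling are given for the rule with the log2 change and not for the wider one. Knockouts of a day share its wild-type libraries, and their values are set side by side without a test between them. Of the 12 targeted genes with values, 11 were lower in their own knockout. Ccnk read 1.01 times and Sub1 0.711 times wild type, so those are called the libraries labelled Ccnk and Sub1 knockout. Thap7 read 0.592 times and Sfr1 0.53 times wild type, and the rest at most 0.343 times (Ell3). The other 7 targets (Figla, Nobox, Ybx3, Noto, Foxr1, Mef2b, Tcf25) had no values here, so these knockouts rest on their titles and headers alone. Summed oocyte markers (9 of 12 measured) averaged 9574 TPM in day 11 and 56007 in day 13 wild type, 2802 to 4778 in the Figla, Lhx8, Stat3, Sub1, Nobox, Dynll1 and Sohlh1 knockouts, 13168 in Tbpl2 and 32215 to 61794 in the other day 13 knockouts. Padi6 (28907 TPM) and Zp3 (16324 TPM) made up most of the day 13 wild-type sum. In each group with a sum of 2802 to 4778 TPM, 6 of 9 markers fell and 1 to 3 rose. Dazl, for one, read 1095 TPM in the Lhx8 knockout beside 425 in wild type. Less RNA per oocyte, fewer oocytes among the sorted cells and lower levels of single genes cannot be told apart.

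Respiratory transcripts took a larger share of the RNA in cultured oocytes than in GV oocytes and the smallest share after maturation. Summed over the 64 members, wild type reached 32137 ± 162 TPM (SD, n = 2) on day 11 and 30975 ± 316 on day 13 (25645 and 32419 after rescaling), and the GV groups 10678 ± 643 (incompetent) and 9492 ± 417 (competent; n = 3 each). DIOLs before maturation ranged from 37606 ± 651 TPM on day 5 to 18492 ± 116 on day 25, and matured DIOLs read 3341 ± 287. After rescaling day 25 and matured DIOLs stood at 22496 and 8348 TPM. By complex the day 13 wild type held 10706 TPM of complex I, 1040 of complex II, 3768 of complex III, 5311 of complex IV and 10150 of complex V, sums that also reflect how many members are listed. The order within groups differed, and in matured DIOLs Atp5b read 832 and Atp5e 47.2 TPM. The most abundant members, by mean TPM over all 68 libraries pooled, were Atp5e (1995), the epsilon subunit of the F1 stalk, Cox6a1 (1329) and Cox6c (1297), nuclear subunits of complex IV, Atp5g3 (1151) and Atp5b (1082), the catalytic beta subunit of F1. Uqcrq (950) and Uqcrh (812), small subunits of complex III, led their complex, and Ndufb9 (841), Ndufa6 (626) and Ndufb8 (614), accessory subunits, led complex I. Sdhb (371), the iron-sulfur subunit, Sdhc (338), a membrane anchor, and Sdha (255), the flavoprotein, made up complex II. Of the c subunit genes Atp5g3 read highest in day 13 wild type, at 1454 and 1503 TPM beside 30.6 and 40.5 for Atp5g1. The coding sequences of Atp5g1 and Atp5g2 are fully copied and that of Atp5g3 is not. How much c subunit transcript each gene gave therefore cannot be told from these values.

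**Figure D2:**
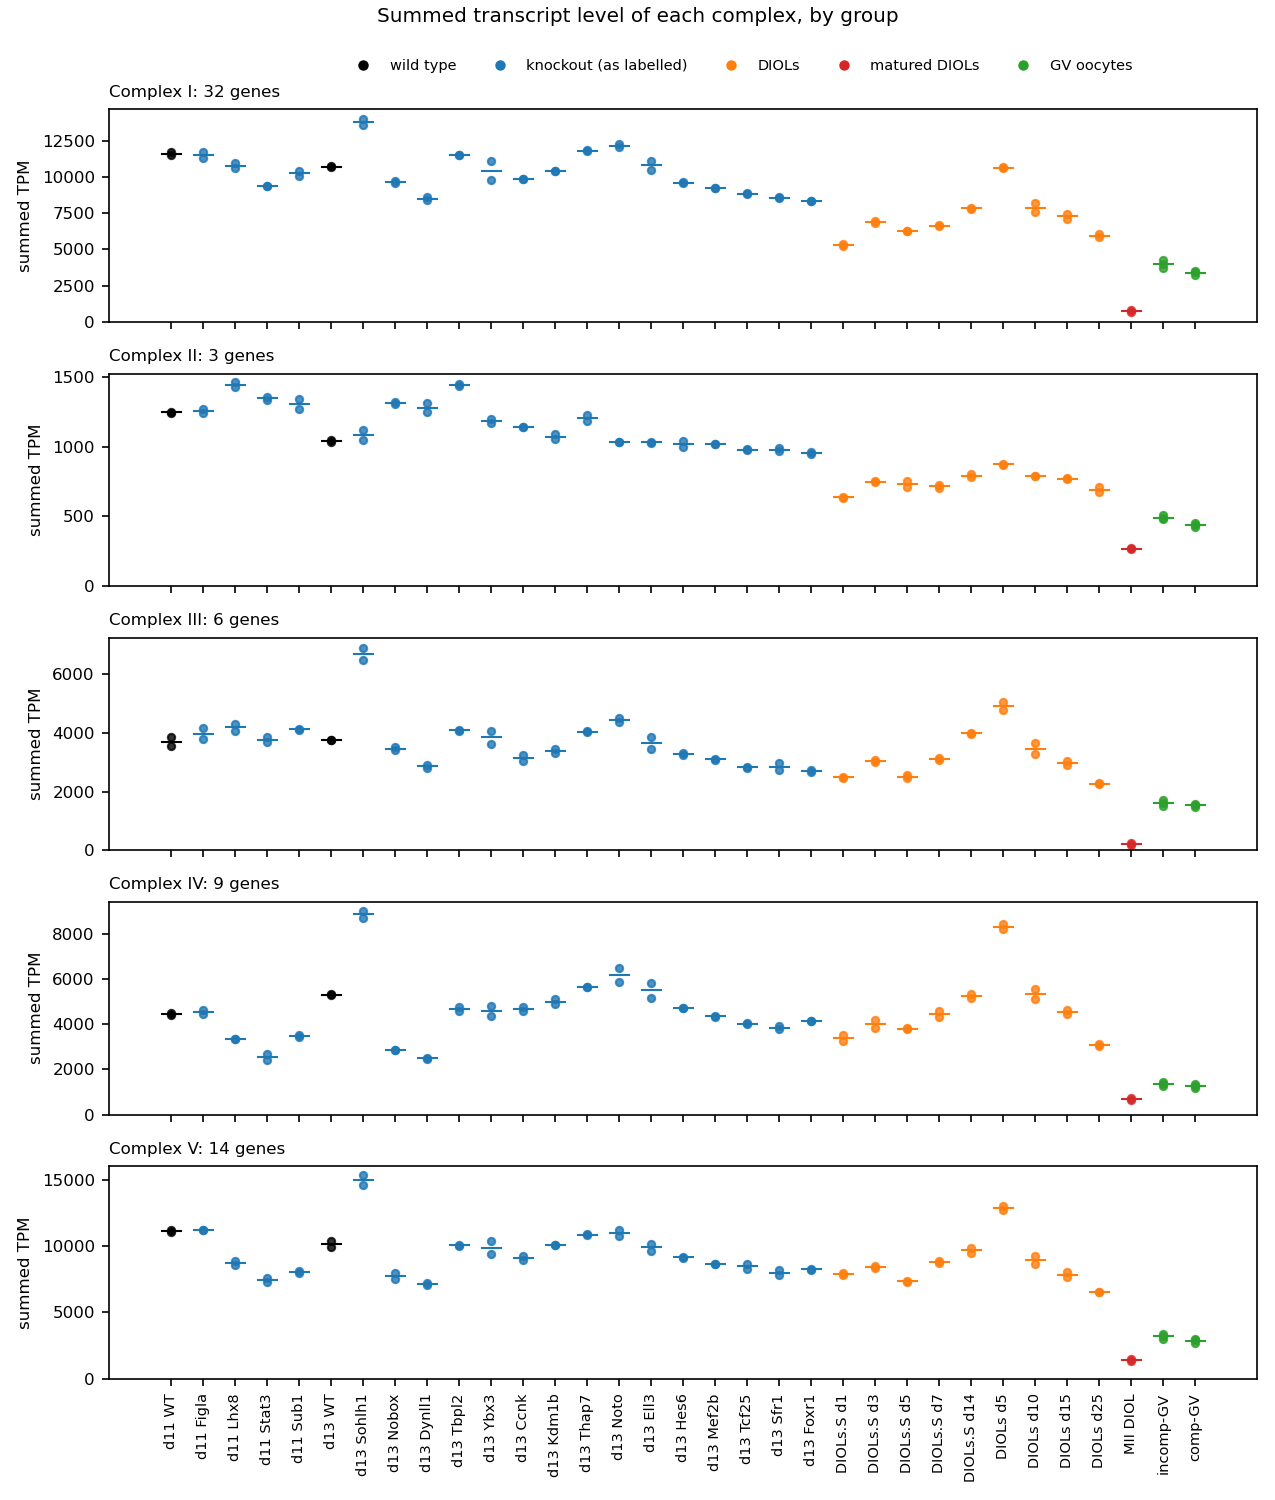
Summed TPM of the listed members of each complex (y axis, from 0) in each group (x axis), 1 point per library and a line at the group mean. The Sohlh1 knockout and day 5 DIOLs are highest in complexes III to V, the Stat3, Nobox and Dynll1 knockouts are below wild type in complexes IV and V, and matured DIOLs are lowest in all 5 panels.

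Between day 11 and day 13 wild type kept most of its respiratory transcripts while many other genes fell. No member rose and 3 fell, where 5.5% of all genes rose and 16.5% fell; the median member changed by -0.09 against -0.24 for all genes. After rescaling 2 rose and 1 fell, beside 1154 and 1360 of all 12306 genes, and the median turned to 0.35. Of complex I, 2 assembly factors fell. Ndufaf1 read 73.0 and 93.3 TPM on day 11 and 38.2 and 42.2 on day 13 (log2 change -1.02, SE 0.23, adjusted p = 0.000795). Ndufaf6 went from 28.7 and 21.2 to 12.2 and 10.0 TPM (-1.09, SE 0.32, adjusted p = 0.00740). Both calls ended after rescaling. Cox7b2, a subunit form best known from testis (chr5:71442824-71548205), went from 8.63 and 7.64 TPM to 1.58 and 0 (-2.51, SE 0.58, adjusted p = 0.000993). By the wider rule 3 members were higher and 18 lower (9.76% and 30.7% of all genes), among them Sdhc at -0.89 (adjusted p = 1.7e-09), Atp5g3 at -0.55 (adjusted p = 2.2e-06) and Atp5b at -0.38 (adjusted p = 2.9e-07), with Cox6a1 higher at 0.41 (adjusted p = 7.7e-05). After rescaling that split was 29 higher and 5 lower. The granulosa and gonadal somatic markers (13 of 16 measured) summed to 1010 TPM on day 11 and 37 on day 13, and their part in these changes was not tested.

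Cox4i2, the form of subunit 4 of complex IV that is induced by low oxygen and known from lung (chr2:152754173-152765037), fell in 7 of the 19 knockout groups. It read 399 and 375 TPM in day 11 and 737 and 675 in day 13 wild type. It was listed at 0 in both Figla knockout libraries and read 0.50 and 0 TPM in the Lhx8, 0.52 and 3.29 in the Stat3, and 40.8 and 44.5 in the libraries labelled Sub1 knockout. On day 13 it read 12.8 and 12.9 TPM in the Nobox knockout, 4.56 and 9.78 in Dynll1, 14.9 and 0 in Sohlh1, but 408 and 405 in Tbpl2, 435 and 430 in Ybx3 and 502 to 814 in the 20 libraries of the other 10. The 7 groups in which it fell did not overlap with wild type, and they are the 7 in vitro groups with the lowest oocyte marker sums. In Tbpl2 the change did not pass (-0.79, adjusted p = 0.319). The fitted changes were -7.25 in Stat3 (SE 0.63, adjusted p = 4.4e-10), -3.15 in Sub1 (SE 0.63, adjusted p = 0.000212), -5.67 in Nobox (SE 0.63, adjusted p = 2.6e-08) and -6.51 in Dynll1 (adjusted p = 1.5e-09). Cox4i2 was low in GV oocytes as well, at 17.3 to 25.0 TPM in incompetent and 7.67 to 8.79 in competent ones.

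**Figure D3:**
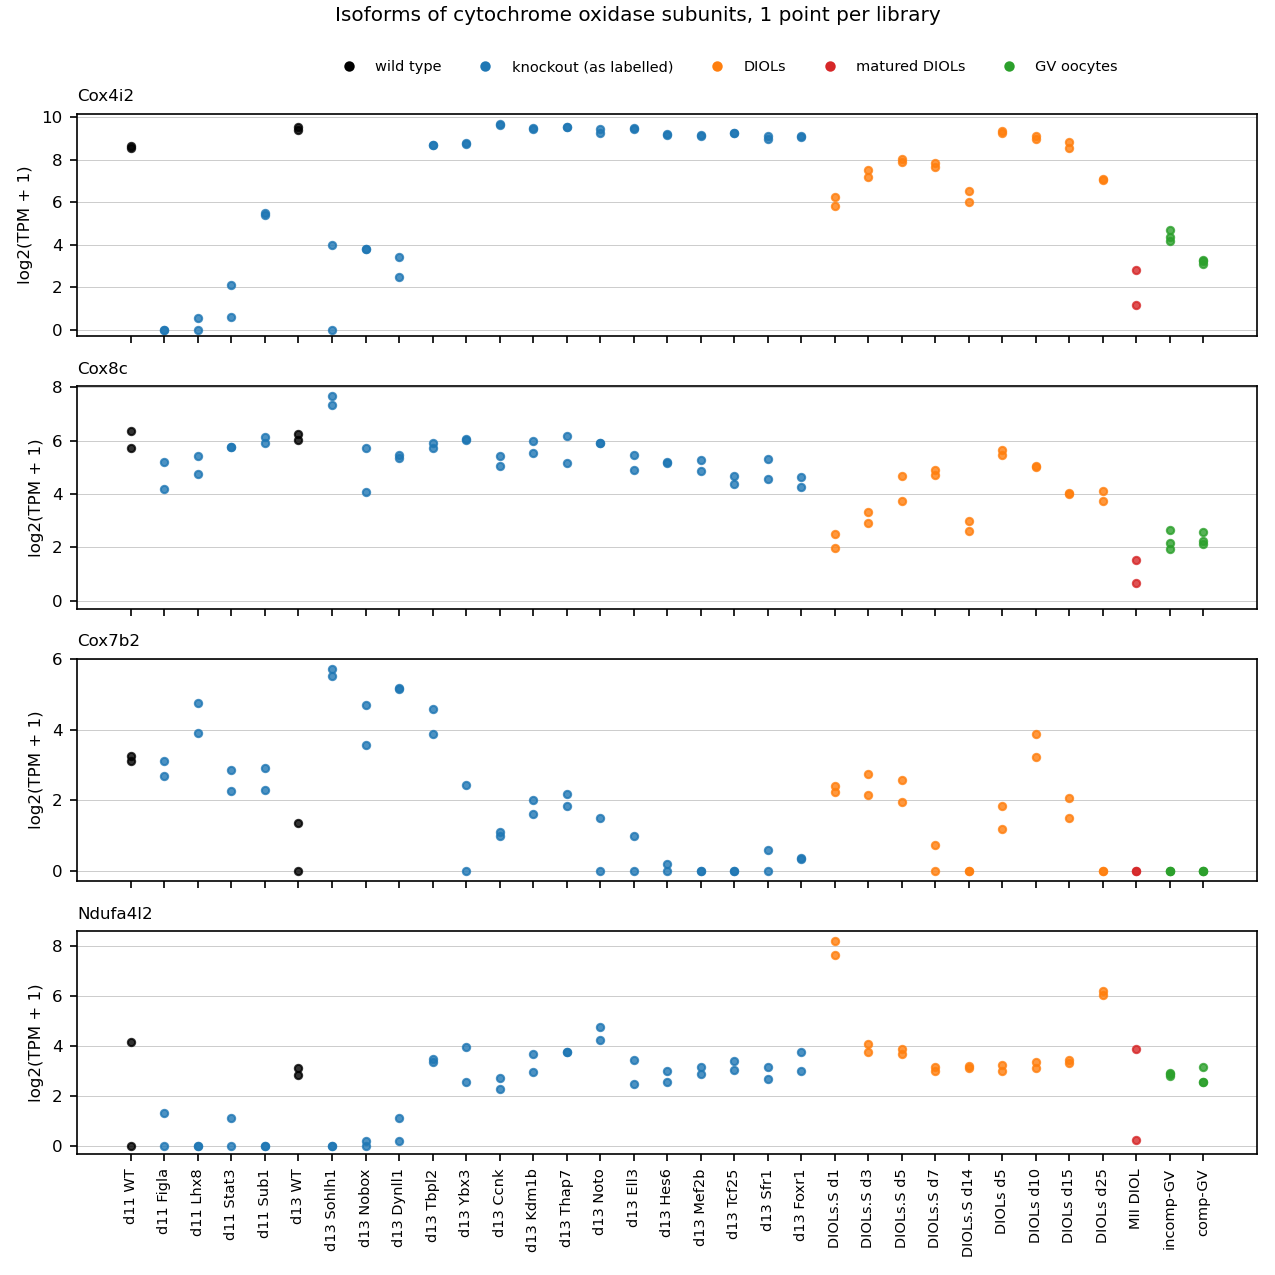
Level of the 4 restricted subunit forms counted with complex IV, Cox4i2, Cox8c, Cox7b2 and Ndufa4l2, as log2(TPM + 1) (y axis) in each group (x axis), 1 point per library. Cox4i2 sits near 9 in wild type and in most day 13 knockouts and near 0 to 6 in 7 knockouts; Cox7b2 is above day 13 wild type in Sohlh1, Nobox, Dynll1 and Tbpl2.

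In the Lhx8 knockout of day 11, whose target is a homeobox factor of oocytes, 1 member rose and 4 fell (12.4% of all genes rose, 9.47% fell), with a median of -0.18 against 0.07. Ndufaf4, an assembly factor of complex I (chr4:24898083-24905001), went from 49.7 and 49.2 TPM to 14.8 and 15.2 (-1.66, SE 0.19, adjusted p = 7.4e-08). Cox8a, the ubiquitous form of subunit 8 of complex IV, went from 432 and 374 TPM to 170 and 183 (-1.19, SE 0.16, adjusted p = 1.4e-06). Uqcr10, a small subunit of complex III (chr11:4701973-4704342), rose from 493 and 638 TPM to 1216 and 1128 (1.06, SE 0.13, adjusted p = 1.3e-07), a call that ended without day 11 wild-type replicate 1 (0.88). Ndufa4l2 was called too, but at 0 in both libraries beside 17.0 and 0 TPM it overlapped with wild type, here and in the libraries labelled Sub1 knockout. The wider rule gave 12 higher and 21 lower (20.9% and 17.9% of all genes). Macrophage and blood markers (10 of 13 measured) averaged 408 TPM against 37 in wild type, with 7 of 10 higher, stroma and endothelium markers (8 of 10 measured) 277 against 103, with 5 of 8 higher, and granulosa and gonadal somatic markers 1546 against 1010, with 2 of 12 higher. Their part was not tested.

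In the Stat3 knockout of day 11, directed at a transcription factor of cytokine signalling, 2 members rose and 11 fell (15.8% of all genes rose, 11.5% fell), with a median of -0.40 against 0.09. The complexes differed in their medians, at -0.63 for complex IV, -0.64 for complex V and -0.40 for complex I beside 0.14 for complex II and 0.04 for complex III. Of complex V the F1 subunits Atp5e and Atp5a1 and the stalk subunit Atp5o fell. Atp5e went from 2663 and 2853 TPM to 1016 and 1118 (-1.37, SE 0.10, adjusted p = 5.5e-12). Atp5o went from 839 and 814 TPM to 364 and 406 (-1.10, adjusted p = 1.7e-11) and Atp5a1 from 1301 and 1281 to 567 and 648 (-1.09, adjusted p = 2.4e-14), each well apart from wild type. Of complex I Ndufaf4 (15.8 and 12.8 TPM, -1.73, adjusted p = 2.4e-08) and Ndufv3 (146 and 137 to 55.9 and 47.4 TPM, -1.44, adjusted p = 6.3e-08), an accessory subunit of its NADH-binding part, fell. Cox8a read 114 and 165 TPM (-1.55, adjusted p = 1.2e-08) and Uqcrq went from 1257 and 1266 to 615 and 643 TPM (-1.004, adjusted p = 3.4e-13). Ndufs1, the largest core subunit of complex I, rose from 158 and 169 TPM to 343 and 354 (1.09, adjusted p = 2.6e-09) and Uqcr10 to 1172 and 1243 (1.10, adjusted p = 4.7e-08). After rescaling none rose and 12 fell, beside 1541 and 1626 of all 12306 genes. By the wider rule 6 were higher and 28 lower (25.3% and 19.6% of all genes), or 3 and 36 after rescaling. Stroma and endothelium markers averaged 231 TPM, with none of 8 called, and their part was not tested.

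In the libraries labelled Sub1 knockout 1 member rose and 8 fell (13.5% of all genes rose, 9.26% fell), with a median of -0.26 against 0.02. The wider rule gave 5 higher and 28 lower (22.9% and 18.0% of all genes). Ndufaf4 read 17.6 and 15.1 TPM (-1.54, adjusted p = 2.8e-07), Cox8a 218 and 175 (-1.04, adjusted p = 1.0e-05) and Uqcr10 1197 and 1318 (1.16, adjusted p = 3.5e-08). Atp5g1 went from 22.6 and 19.1 TPM to 9.82 and 5.10 (-1.42, adjusted p = 0.000799) and Atp5g2 was listed at 0 in both libraries. Macrophage and blood markers summed to 3015 and 3089 TPM in these libraries against a mean of 37 in day 11 wild type, and their part was not tested.

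After rescaling the Figla knockout, directed at a helix-loop-helix regulator of oocyte genes, had a median of -0.22. Then 6 members rose and 7 fell, beside 1602 and 1479 of all 12306 genes. Before rescaling 7 members rose and 3 fell (18.6% of all genes rose, 9.52% fell), with a median of 0.04 against 0.20. All 7 that rose were among the 13 members with at least 50% of their coding sequence in a copy, and none of the 37 with under 5% rose; the medians of the classes were 1.05, 0.08 for 5 to 50%, and -0.10. Besides Atp5g1 (3.44, SE 0.32, adjusted p = 2.2e-09), Atp5g2 (4.67, SE 0.66, adjusted p = 2.0e-06) and Atp5h (2.31, SE 0.16, adjusted p = 1.4e-11) these were Cox7a2l, a supercomplex factor (143 and 153 to 422 and 364 TPM), Ndufa12 (120 and 124 to 317 and 297), Ndufs3, a core subunit of complex I (127 and 89.9 to 256 and 282), and Atp5f1, subunit b of the stalk (445 and 482 to 979 and 936). Ndufb4, whose coding sequence is also fully copied, did not pass (-0.47, adjusted p = 0.202). Ndufaf4 fell to 28.4 and 20.4 TPM (-1.01, adjusted p = 9.2e-05). Cox8c, a subunit 8 form known from testis (chr12:102899316-102900526), read 36.1 and 17.1 TPM beside 51.7 and 80.7 (-1.34, SE 0.39, adjusted p = 0.00659), and the call ended without day 11 wild-type replicate 2 (-1.02) or Figla replicate 2 (-0.82). Macrophage and blood markers averaged 459 TPM here, with 7 of 10 higher, and stroma and endothelium markers 360, with 3 of 8 higher, and their part was not tested.

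**Figure D4:**
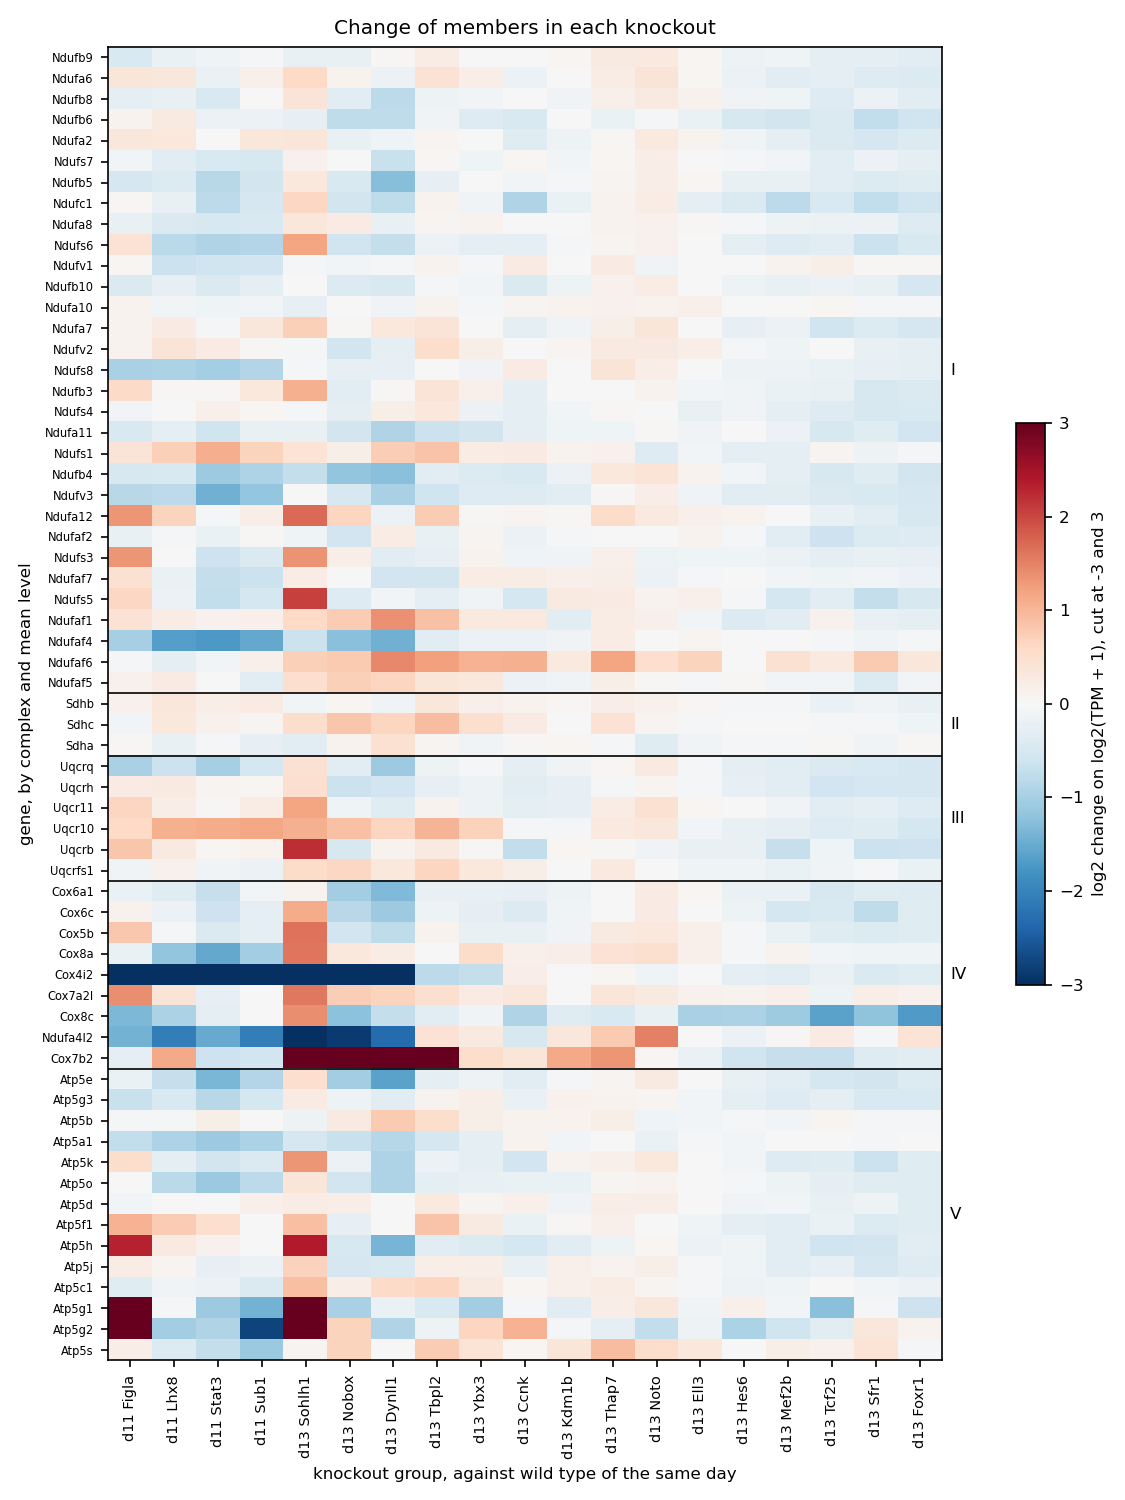
Log2 change of the members, all but 1 of them (rows, by complex and mean level), in each of the 19 knockouts (columns) against wild type of the same day, red higher and blue lower, with the colour limited at -3 and 3. Cox4i2 is dark blue in 7 columns; Atp5g1, Atp5g2 and Atp5h are red in Figla and Sohlh1; Ndufaf4 is blue and Uqcr10 red in most of those 7 columns; the columns from Mef2b to Foxr1 are pale blue.

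On day 13 the median member was lower in the Nobox and Dynll1 knockouts while that of all genes was higher. In the Nobox knockout, of a homeobox factor of early follicles, 2 members rose and 7 fell, 3.12% and 10.9% of them. Of all genes 30.0% rose and 8.5% fell, so the share that fell lay near that of all genes. The medians were -0.23 against 0.52. After rescaling 1 member rose and 24 fell, beside 2274 and 1695 of all 12306 genes. Cox6a1 went from 1946 and 1901 TPM to 915 and 964 (-1.03, adjusted p = 9.6e-12) and Atp5e from 2760 and 2905 to 1419 and 1334 (-1.04, adjusted p = 8.9e-10). Ndufb4 went from 181 and 178 TPM to 78.8 and 78.3 (-1.18, adjusted p = 0.00135) and Ndufaf4 from 55.4 and 62.1 to 24.1 and 24.1 (-1.25, adjusted p = 3.5e-06). Cox7b2 rose from 1.58 and 0 TPM to 24.9 and 10.9 (3.45, SE 0.58, adjusted p = 1.4e-05). Cox8c read 51.9 and 15.9 TPM beside 64.3 and 75.3, and its call (-1.24, adjusted p = 0.00897) rested on Nobox replicate 2, without which it was -0.41. Granulosa and gonadal somatic markers averaged 697 TPM against 37 in day 13 wild type, with 10 of 12 higher, and stroma and endothelium markers 177 against 20, with 7 of 8 higher and 1 lower. Their part was not tested.

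The knockout of Dynll1, a light chain of dynein and myosin motors, had 3 members that rose and 10 that fell, 4.69% and 15.6% of them. Of all genes 37.7% rose and 10.4% fell. The medians were -0.25 against 0.69. After rescaling 1 member rose and 28 fell, beside 3013 and 2149 of all 12306 genes. Atp5e read 921 and 931 TPM (-1.61, adjusted p = 1.2e-13), Cox6a1 848 and 706 (-1.31, adjusted p = 5.4e-14) and Uqcrq 599 and 619 beside 1298 and 1284 (-1.08, adjusted p = 4.3e-14). Ndufb5, an accessory subunit of complex I, went from 542 and 555 TPM to 210 and 241 (-1.28, adjusted p = 3.9e-11), Ndufaf4 to 21.7 and 20.4 (-1.44, adjusted p = 2.9e-07) and Atp5h from 237 and 227 to 103 and 74.1 (-1.40, adjusted p = 4.7e-08). The assembly factors Ndufaf1 (99.0 and 112 TPM, 1.37, adjusted p = 1.1e-05) and Ndufaf6 (32.3 and 31.6 TPM, 1.45, adjusted p = 0.000293) rose with Cox7b2 (34.8 and 35.7 TPM, 4.50, adjusted p = 1.9e-07). Complex II was the one complex of the 5 with a positive median, 0.45. Granulosa and gonadal somatic markers averaged 384 TPM, with 9 of 12 higher, stroma and endothelium markers 108, with 6 of 8 higher, and macrophage and blood markers 291 against 77 in wild type, with 7 of 10 higher and 1 lower. Their part was not tested.

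The Tbpl2 knockout, of an oocyte relative of the core promoter factor TBP, showed no member that fell and 3 that rose (22.8% of all genes rose, 6.35% fell). The median of 0.09 against 0.36 turned to -0.34 after rescaling. Then 1 rose and 2 fell, beside 1911 and 1401 of all 12306 genes. Uqcr10 went from 418 and 407 TPM to 807 and 879 (1.03, adjusted p = 1.9e-07), Ndufaf6 from 12.2 and 10.0 to 24.1 and 30.7 (1.23, adjusted p = 0.00236) and Cox7b2 to 13.6 and 22.9 (3.54, adjusted p = 1.4e-05). Granulosa and gonadal somatic markers averaged 910 TPM, with 12 of 12 higher, and stroma and endothelium markers 324, with 5 of 8 higher, and their part was not tested.

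The knockout of Sohlh1, a helix-loop-helix regulator of early oocyte growth, had the highest sum over all members in the series, 45373 TPM, copied members included. In all 19 rose and 2 fell (22.3% of all genes rose, 13.4% fell), with a median of 0.48 against 0.08. After rescaling 11 rose and 4 fell, beside 2127 and 2189 of all 12306 genes, and the median was 0.12. By complex 6 of complex I, 3 of complex III, 6 of complex IV and 4 of complex V rose and none of complex II. Of the 13 members with at least 50% of the coding sequence copied 11 rose, of the 14 with 5 to 50% 4 rose, and of the 37 with under 5% 4 rose; the class medians were 1.64, 0.65 and 0.23. Atp5g2 went from 0.44 and 2.59 TPM to 355 and 392 (7.36, SE 0.66, adjusted p = 6.2e-10), Atp5g1 from 30.6 and 40.5 to 439 and 357 (3.45, adjusted p = 1.3e-09) and Uqcrb from 151 and 147 to 688 and 696 (2.21, adjusted p = 7.3e-10). Cox5b, a nuclear subunit of complex IV, went from 581 and 612 TPM to 1888 and 1823 (1.64, adjusted p = 8.5e-13).

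Among the 37 members with little copied sequence the 4 that rose in the Sohlh1 knockout included 3 of complex IV. Cox8a went from 266 and 245 TPM to 884 and 686 (1.605, adjusted p = 5.4e-09), Cox8c from 64.3 and 75.3 to 206 and 162 (1.38, adjusted p = 0.00424) and Cox7b2 from 1.58 and 0 to 52.1 and 44.7 (4.94, SE 0.58, adjusted p = 6.4e-08). Ndufa4l2, a form induced by low oxygen and counted here with complex IV (chr10:127514967-127517154), was listed at 0 in both libraries, beside 7.71 and 6.15 TPM. Atp5a1 (-0.50, adjusted p = 5.9e-08) and Sdha (-0.33, adjusted p = 0.00118) were lower by the wider rule, and Atp5e was higher at 0.51 (adjusted p = 6.5e-05). The replicates of this group correlated least of all groups across genes (r = 0.873). Their macrophage and blood markers summed to 117 and 3625 TPM and stroma and endothelium markers to 203 and 1884, beside means of 77 and 20 in wild type, and granulosa and gonadal somatic markers to 167 and 301; their part was not tested, and without either library 18 to 21 members rose.

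The 11 other day 13 knockouts changed few members by the fold rule, and those calls ended when single libraries were left out, so the wider rule is used. In the Foxr1 knockout, of a forkhead factor, 21 members were lower and none higher, where 0.715% of all genes were lower and 3.45% higher. In the Sfr1 knockout, of a partner of recombination proteins, 20 were lower and none higher (0.804% and 2.97%), and in the Tcf25 knockout 15 and none (0.585% and 2.24%). Their medians were -0.36, -0.34 and -0.27 against 0.13, 0.13 and 0.10 for all genes. Leaving out 1 library left 9 to 12, 8 to 12 and 8 to 10 members lower, and rescaling gave 34, 29 and 31. Uqcrq went from 1298 and 1284 TPM in wild type to 918 and 906 in Foxr1 (-0.50, adjusted p = 8.6e-06) and 900 and 998 in Sfr1. Ndufb6, an accessory subunit of complex I, went from 735 and 813 TPM to 521 and 499 in Foxr1 (-0.60, adjusted p = 0.000403) and 449 and 481 in Sfr1 (-0.73, adjusted p = 3.8e-05). Cox6a1 read 1391 and 1372 TPM in Tcf25 beside 1946 and 1901 (-0.48, adjusted p = 0.000601). Oocyte markers averaged 52717 TPM in Foxr1, 51579 in Sfr1 and 48284 in Tcf25 against 56007 in wild type. Granulosa and gonadal somatic markers averaged 168, 166 and 62.3 TPM against 37, with 5, 5 and 2 of 12 higher, and stroma and endothelium markers 135, 87.9 and 20.3 against 20, with 3, 1 and none of 8 higher. Their part was not tested. No value given here overlapped with the wild-type libraries, which all 3 comparisons share.

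Kdm1b and Ell3 gave no member by limma's adjusted p (3 and 4 at an unadjusted p under 0.05), where 4.1% of all genes were higher and 0.496% lower, and 0.122% and 0.374%. After rescaling 5 were lower in Kdm1b and none in Ell3. Mef2b had 6 lower (1.44% of all genes higher, 0.496% lower), and 6 after rescaling too. Hes6 had 4 lower (0.853% and 2.35%), and none after rescaling. Thap7 had 5 higher (4.39% and 1.59%), among them Sdhc at 0.44 and Atp5b at 0.18, and 2 after rescaling. Noto had 5 higher and 3 lower (3.39% and 0.967%), with Ndufb8 at 0.27, Uqcrq at 0.26 and Sdha at -0.37, and none higher and 4 lower after rescaling. Ybx3 had 10 higher and 6 lower (26.0% and 7.24%) and the libraries labelled Ccnk knockout 5 and 13 (15.2% and 2.52%). Rescaling moved these to 1 higher and 32 lower, and none higher and 32 lower. In Ybx3 granulosa and gonadal somatic markers averaged 1313 TPM, with 12 of 12 higher, macrophage and blood markers 496, with 7 of 10 higher, and stroma and endothelium markers 174, with 5 of 8 higher. In Kdm1b these lists stood at 298, 223 and 178 TPM, with 8 of 12, 3 of 10 and 3 of 8 higher, and in the other 6 groups of this paragraph granulosa and gonadal somatic markers averaged 47.8 to 239. Their part was not tested.

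Over the DIOLs.S course the sum over all members was 19715 TPM on day 1 and 27519 on day 14 while the oocyte markers went from 835 to 77998. Pluripotency markers (5 of 10 measured) averaged 1088 TPM on day 1 and 245 on day 3, with 4 of 5 lower. Pou5f1 held 850 TPM of the day 1 sum, and the same sum stood at 721 in day 13 wild type. From day 1 to day 3, 1 member rose and 1 fell (11.9% of all genes rose, 9.0% fell). By the wider rule 31 were higher and 6 lower (30.9% and 18.3% of all genes), or 15 and 8 after rescaling. Cox6c was higher at 0.70 (adjusted p = 3.1e-06) and Atp5e at 0.93 (adjusted p = 5.4e-05), while Atp5b was lower at -0.51 (adjusted p = 8.3e-06). Ndufa4l2 fell from 289 and 200 TPM to 16.0 and 12.6 (-3.99, SE 0.61, adjusted p = 2.0e-05), and Cox4i2 rose from 75.0 and 54.8 to 146 and 181 (1.33, SE 0.32, adjusted p = 0.00172). From day 3 to day 7, 1 rose and 1 fell (5.83% and 7.28% of all genes): Cox8c went from 9.10 and 6.59 TPM to 29.2 and 25.1 (1.68, adjusted p = 0.000229) and Cox7b2 from 5.76 and 3.40 to 0 and 0.65. From day 7 to day 14, 1 rose and 3 fell where 7.78% of all genes rose and 32.8% fell, with a median of 0.15 against -0.51. After rescaling 8 rose and 3 fell, beside 1656 and 2516 of all 11603 genes. Cox4i2 fell from 203 and 230 TPM to 63.1 and 90.5 (-1.50, adjusted p = 0.000320), Ndufaf1 from 44.3 and 44.2 to 9.71 and 18.9 (-1.63) and Cox8c to 6.93 and 5.07 (-2.02). Atp5b and Atp5e, subunits of the same F1 part, took opposite courses: Atp5b went from 1725 and 1850 TPM on day 1 to 642 and 668 on day 14, and Atp5e from 620 and 538 to 2733 and 2767. Neither range overlapped between the days. From at least 50% to under 5% of the coding sequence copied, the class medians for day 3 against day 1 were 0.38, 0.23 and 0.32. They were -0.08, 0.11 and -0.12 for day 7 against day 3, and 0.12, 0.25 and 0.12 for day 14 against day 7. Granulosa and gonadal somatic markers averaged 526 TPM on day 3, 1199 on day 7 and 58.9 on day 14. The 2 day 7 libraries differed, at 475 and 1923 TPM, and their stroma and endothelium markers summed to 48.8 and 213 TPM. The part of these markers was not tested.

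In the DIOLs series the sums declined from day 5 to day 25, through 26444 TPM on day 10 and 23402 on day 15. Between the end points 1 member rose and 24 fell (10.9% of all genes rose, 33.4% fell), with a median of -0.80 against -0.50. The share of members that fell, 37.5%, lay near that of all genes. After rescaling 1 rose and 15 fell, beside 1847 and 2676 of all 11603 genes. Before rescaling 6 of 13 members with at least 50% of the coding sequence copied fell, 5 of 14 with 5 to 50%, and 13 of 37 with under 5%. The class medians were -0.97, -0.72 and -0.73. By complex 6 of 9 members of complex IV fell, 7 of 14 of complex V, 3 of 6 of complex III, 8 of 32 of complex I and none of 3 of complex II. Atp5g3 went from 1651 and 1632 TPM to 377 and 338 (-2.20, adjusted p = 1.0e-11), Cox6c from 2784 and 2782 to 733 and 735 (-1.92, adjusted p = 7.4e-13) and Ndufaf1 from 72.7 and 59.7 to 9.83 and 6.61 (-2.88, adjusted p = 3.6e-09). Cox4i2 went from 643 and 610 TPM to 131 and 137 (-2.22, adjusted p = 3.6e-06), and Ndufa4l2 rose from 8.42 and 6.92 to 64.9 and 71.8 (3.00, adjusted p = 0.000208). Sdha was higher at 0.45 by the wider rule (adjusted p = 6.3e-06). Macrophage and blood markers averaged 643 TPM on day 5, of which Spp1 held 590 and C1qb 42.9, while C1qa and C1qc read 0. Of the 8 tested, 1 was higher and 1 lower on day 25. Stroma and endothelium markers averaged 356 TPM on day 5, of which Col1a1 held 248, and of 8 tested 2 were higher and 5 lower on day 25. The part of these markers was not tested.

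Day 25 DIOLs held more respiratory transcript than incompetent GV oocytes in most complexes: 19 members rose and 1 fell (12.8% of all genes rose, 13.5% fell), with a median of 0.79 against 0. Copied genes led: the medians were 1.31 with at least 50% of the coding sequence copied, 0.87 with 5 to 50% and 0.60 with under 5%, with 8, 5 and 6 members higher. Ndufs8, an iron-sulfur core subunit of complex I, read 199 and 180 TPM beside 55.7, 58.7 and 51.9 (1.75, adjusted p = 1.8e-13), and Ndufa4l2 was higher by 3.24 (adjusted p = 5.0e-05). Ndufaf2, an assembly factor of complex I with 65.1% of its transcript in other genes (chr13:108002715-108158623), fell (99.4 and 126 TPM beside 169, 218 and 398; -1.12, adjusted p = 0.000316), which without incompetent GV replicate 3 was -0.77. In DIOLs.S of day 14, 35 members rose and none fell against the same GV oocytes (10.9% and 20.2% of all genes), with class medians of 2.43, 1.47 and 0.86. Wild-type in vitro oocytes of day 13 had 42 members higher and 2 lower (18.4% and 15.2% of all genes), with a median of 1.29 against 0, and here the copied classes did not lead (1.07, 1.40 and 1.28). Atp5g3 read 1454 and 1503 TPM beside 179, 185 and 215 in GV oocytes (2.93, adjusted p = 8.0e-27), and Cox4i2 was higher by 5.04 (adjusted p = 1.3e-11). Culture and origin differ together between these groups, and age may too, since the labels give none for the GV oocytes. These cannot be told apart.

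Competent GV oocytes differed little from incompetent ones. By the wider rule 22 members were lower and none higher (22.4% of all genes lower, 17.2% higher), 11 of complex I, 7 of complex V, 2 of complex IV and 1 each of complexes II and III; after rescaling 15 were lower and 3 higher. Sdhb went from 163, 171 and 170 TPM to 105, 98.8 and 99.9 (-0.73, adjusted p = 2.3e-08), and Atp5g3 was lower by -0.75 (adjusted p = 6.4e-06). By the fold rule none rose and 2 fell (2.54% and 7.42% of all genes): Cox4i2, from 19.8, 25.0 and 17.3 TPM to 8.46, 8.79 and 7.67 (-1.21, SE 0.26, adjusted p = 0.000800), and Ndufaf1, from 4.28, 4.36 and 4.09 to 0.99, 0.51 and 1.46 (-1.43, adjusted p = 9.6e-06). The groups did not overlap in Sdhb, Cox4i2 or Ndufaf1. They differ in the 2w and 3w of the headers too, so competence and what these mark cannot be told apart.

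Matured DIOLs had lower levels of most respiratory transcripts than day 25 DIOLs. Against day 25, 58 members fell and none rose (37.8% of all genes fell, 19.8% rose), with a median of -3.28 against -0.39. Relative to a scale shift of -0.83 over all genes, 52 members fell and 2 rose, beside 3281 and 3557 of all 11603 genes. By complex 31 of 32 members of complex I, 2 of 3 of complex II, 6 of 6 of complex III, 7 of 9 of complex IV and 12 of 14 of complex V fell. Atp5e went from 1461 and 1477 TPM to 35.5 and 59.0 (-4.97, SE 0.16, adjusted p = 8.9e-17), Ndufs7, a core subunit of complex I, from 324 and 289 to 4.54 and 13.3 (-5.11, adjusted p = 3.2e-14) and Uqcrq from 751 and 658 to 34.1 and 58.7 (-3.94, adjusted p = 2.9e-15). Sdhb went from 199 and 230 TPM to 15.0 and 17.9 (-3.62, adjusted p = 5.8e-19).

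The 6 members that did not fall by the fold rule were of complexes I, II, IV and V. Atp5b read 805 and 858 TPM after and 686 and 686 before (0.28, SE 0.07, adjusted p = 0.00193). Sdha read 204 and 208 TPM beside 261 and 245 (-0.29, adjusted p = 0.000636), Cox8a 281 and 274 beside 421 and 418 (-0.60, adjusted p = 1.1e-07) and Ndufaf2 124 and 112 beside 99.4 and 126 (0.08, adjusted p = 0.822). Atp5c1, the gamma subunit of the F1 rotor, was lower by -0.37 (adjusted p = 0.000274), and Cox7b2 was listed at 0 in both groups. Partners within a complex went apart, Atp5b beside Atp5e in F1 and Sdha beside Sdhb in complex II. Against competent GV oocytes 1 member rose and 45 fell in matured DIOLs (18.3% of all genes rose, 31.9% fell). After rescaling 6 rose and 37 fell, beside 3711 and 2782 of all 11603 genes. Before rescaling Atp5b (431, 410 and 437 TPM in GV oocytes) was higher by 0.96 (adjusted p = 3.8e-11) and Sdha by 0.43 (adjusted p = 2.8e-06). From at least 50% to under 5% of the coding sequence copied, the class medians were -3.17, -3.32 and -3.30 against day 25, and -1.02, -2.25 and -2.32 against competent GV oocytes, where 7 of 13, 12 of 14 and 26 of 37 members fell. Granulosa and gonadal somatic markers averaged 584 TPM in matured and 29.2 in day 25 DIOLs and oocyte markers 12442 and 55278, and their part was not tested. The libraries held polyA RNA, so a shorter poly(A) tail and less mRNA cannot be told apart.

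**Figure D5:**
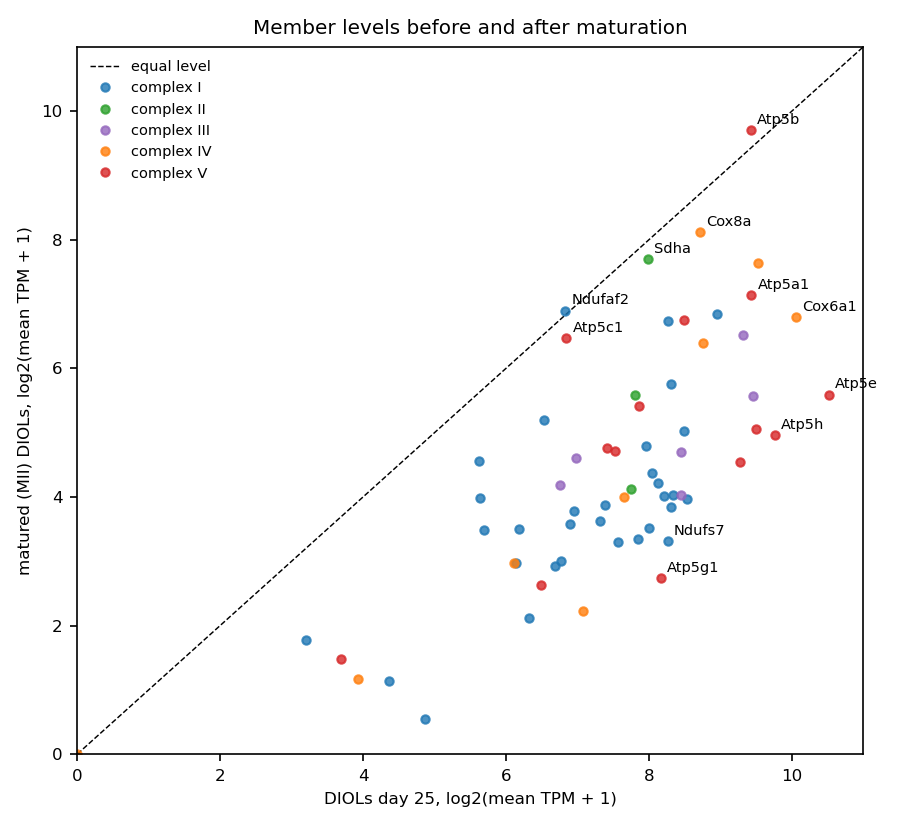
Mean level of each member in matured DIOLs (y axis) against day 25 DIOLs (x axis), both as log2(mean TPM + 1), coloured by complex, with a dashed line at equal levels. Atp5b lies just above the line and Ndufaf2 on it, Sdha, Atp5c1 and Cox8a lie close below, and Atp5a1, Cox6a1, Atp5e, Atp5h, Ndufs7 and Atp5g1 lie far below.

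Other mitochondrial genes were counted in lists beside the members. Of 54 assembly factors and electron carriers 38 non-members were tested, of 26 genes of mitochondrial gene expression and its regulators 20 (19 in the DIOL and GV fit), of 25 of the citrate cycle and pyruvate oxidation 16, and of 11 ATP and phosphate carriers 7. With maturation 30 assembly genes fell and 1 rose (Uqcc2, of complex III assembly, -4.90; Surf1, of complex IV assembly, -4.27), 10 of the citrate cycle fell and 1 rose (Ogdh -4.92, Mdh2 -3.64), 10 gene expression factors fell and 4 rose (Tfam, which packs mitochondrial DNA, -4.91; Tfb2m 2.86) and 2 carriers fell and 1 rose (Vdac1 1.32). From day 5 to day 25 of DIOLs 17 assembly genes fell and 2 rose, 9 expression factors fell and 2 rose, 4 carriers fell and none rose, and no gene of the citrate cycle list was called. The shares of all genes that rose or fell in these comparisons stand with the members above. With maturation 78.9% of the tested assembly genes, 62.5% of the citrate cycle and 52.6% of the expression list fell, beside 37.8% of all genes, and from day 5 to day 25 44.7% of assembly genes and 47.4% of expression factors, beside 33.4%. In the Sohlh1 knockout 7 assembly genes rose and 2 fell (Usmg5, a small ATP synthase subunit, 4.29; Surf1 -1.59), 4 expression factors rose and 3 fell (Tfam -1.93), 3 citrate cycle genes rose and 1 fell (Mpc1, of the pyruvate carrier, 3.71) and 2 carriers rose and 1 fell. The shares that rose, 18.4%, 20.0%, 18.8% and 28.6% of these lists, lie near the 22.3% of all genes. In the Stat3 knockout 3 assembly genes rose and 10 fell (26.3% of the list, beside 11.5% of all genes; Sdhaf4 -2.05, Atpaf2 2.04) and 2 citrate cycle genes rose and 1 fell (Cs 1.54, Pcx 1.97). Cyct, the cytochrome c of testis and the one other gene of the list of restricted forms, rose in 9 of the 19 knockout groups, by 4.06 in Dynll1, 3.57 in Sohlh1, 3.496 in Tbpl2, 2.58 in Nobox, 1.93 in Stat3, 1.84 in Lhx8, 1.41 in Ybx3, 1.14 in Thap7 and 1.06 in the libraries labelled Sub1 knockout. It fell in Mef2b (-1.11) and from day 11 to day 13 of wild type (-1.46). Pprc1, a coactivator of nuclear respiratory genes, rose in Dynll1 (2.77) and Nobox (1.73). In Foxr1 and Tcf25 no assembly gene passed the fold rule and in Sfr1 1 fell.

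Promoter windows of 250 bases before the start were searched on both strands for 3 motifs, in RefSeq sequences of GRCm38.p6. Windows were found for 49 members. The NRF1 motif was GCGCA, any base, then GCGC, of a factor known to bind many respiratory genes. This motif was in 12 of 49 (24.5%) and in 4.2% of 26976 other genes (3.74% of all windows, of which a gene can have several). The ETS motif CCGGAAG, read by GABP, was in 9 of 49 (18.4%) and in 7.81% of other genes, and the YY1 motif AAGATGGCG in 1 (2.04%, Atp5j) and 0.708%. The NRF1 matches are shown for 4 members whose levels went apart: Atp5k and Atp5h, which rose in the Sohlh1 knockout, Atp5g2, and Sdha, which changed least of its complex with maturation. Each is printed 5′ to 3′ on the gene's strand with the match in capitals.
Atp5k, chr5:108434410-108434479: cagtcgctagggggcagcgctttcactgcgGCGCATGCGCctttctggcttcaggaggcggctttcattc
Atp5h, chr11:115420021-115420090: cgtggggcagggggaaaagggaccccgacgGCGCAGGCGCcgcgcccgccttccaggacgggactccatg
Sdha, chr13:74350299-74350368: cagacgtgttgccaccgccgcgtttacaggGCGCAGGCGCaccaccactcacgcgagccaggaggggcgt
Atp5g2, chr15:102671050-102671119: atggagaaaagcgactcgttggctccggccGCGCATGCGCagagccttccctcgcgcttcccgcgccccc
A match describes these letters only, and a window without one says nothing of the factor.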

How the data were processed

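RNA was measured by polyA-selected, directional sequencing of pooled oocytes or oocyte-like cells. The aligner STAR 2.6.0, the counter featureCounts 1.6.0 and the mouse build mm10 are named, per the submitters' processing notes. The authors deposited 1 table of TPM, a level scaled for gene length and library size, per gene, and how reads with several matches were counted is not given in the sources used here. Of 148 columns 68 matched a sample and 80 matched none and were not used; 3 samples labelled vivo-Pr-fol-P3 had no column and were not analysed here. Of 15163 lines 15140 genes were used, after 1 incomplete line and 22 names read as dates were left out. Genes at 1 TPM or more numbered 8011 to 10596 per library, and depth is unknown. Because the values are TPM and not counts, log2(TPM + 1) was fitted with limma 3.58.1 in R 4.3.3 (trend and robust options, group as the one factor) separately for 42 in vitro and 26 DIOL and GV libraries, and over all 68 for the comparison across them, with 21 and 14 residual degrees of freedom. P-values were adjusted by Benjamini-Hochberg over all genes tested, and the fit was tested on simulated data. Library pairs were compared, and none was identical.

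The members and the lists (assembly and electron carriers, mitochondrial gene expression, citrate cycle, carriers, restricted forms, cell type markers) were chosen with earlier results of these data known. Named members were, per comparison and complex, up to 3 called ones with the largest change whose libraries did not overlap and whose higher mean was at least 10 TPM, the 3 most abundant of each complex, and the restricted forms; list genes were up to 4 called ones by size. Members with copied sequence, Foxr1, Sfr1 and Tcf25 genes, and partners named beside them were chosen after their values were seen. The values of a few genes these rules named are not reported here. Copied sequence is the percent of 31-mers of GENCODE M21 transcripts (14555 genes matched) found in another gene. Promoter windows come from RefSeq and were missing for 15 members. Alternatives were a pseudocount of 0.1, no filter, median-of-ratios rescaling, a replicate block, 1 fit, left-out libraries and members without copies.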

Additional observations from a re-analysis of the deposited data

How the results depend on the processing

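The median log2 change of the members kept its direction and moved by less than the spread between libraries in all 30 comparisons with a pseudocount of 0.1, without the filter and with the replicate number as a block, and in all 29 and all 19 comparisons that 1 fit over all libraries and a fit without the Sohlh1 knockout libraries could give. Median-of-ratios rescaling moved 25 of 30 medians: 0.35 for wild type day 13 v day 11, -0.22 in Figla, -0.56 in Stat3, -0.82 in Nobox, 0.12 in Sohlh1, -0.34 in Tbpl2, -0.89 in Dynll1, -0.34 in Ybx3, -0.43 in Ccnk, -0.14 in Kdm1b, 0.021 in Thap7, 0.049 in Noto, -0.48 in Foxr1, -0.46 in Sfr1, -0.0078 in Hes6, 0.080 in Ell3, -0.43 in Tcf25, 0.097 for DIOLs.S day 3 v 1, -0.011 for DIOLs.S day 7 v 3, 0.65 for DIOLs.S day 14 v 7, -0.37 for DIOLs day 25 v 5, -2.38 for matured v day 25 DIOLs, 1.39 for day 14 DIOLs.S v GV, -1.21 for matured DIOLs v GV, 1.06 for day 13 wild type v GV. With only members sharing under 5% of their transcript sequence 17 moved: -0.16 for wild type day 13 v day 11, -0.26 in Lhx8, -0.088 in Figla, -0.017 in Nobox, 0.23 in Sohlh1, 0.086 in Ybx3, 0.036 in Ccnk, 0.19 in Thap7, 0.16 in Noto, -0.29 in Foxr1, -0.13 in Mef2b, -0.19 in Sfr1, -0.19 in Tcf25, 0.20 for DIOLs.S day 3 v 1, -0.12 for DIOLs.S day 7 v 3, 0.65 for day 25 DIOLs v GV, 0.90 for day 14 DIOLs.S v GV. With only members whose coding sequence shares under 5% elsewhere, chosen after seeing the data, 12 moved: -0.10 in Figla, -0.081 in Nobox, 0.23 in Sohlh1, 0.075 in Ybx3, 0.036 in Ccnk, -0.30 in Foxr1, -0.15 in Mef2b, -0.23 in Sfr1, -0.20 in Tcf25, -0.12 for DIOLs.S day 7 v 3, 0.60 for day 25 DIOLs v GV, 0.86 for day 14 DIOLs.S v GV. Leaving out 1 library moved 26 of 126 medians, with these ranges: -0.253 to -0.193 in Nobox, -0.0568 to 0.0786 in Ybx3, -0.152 to -0.107 in Ccnk, -0.0521 to -0.0267 in Kdm1b, 0.131 to 0.169 in Thap7, 0.14 to 0.153 in Noto, -0.229 to -0.164 in Mef2b, -0.349 to -0.278 in Sfr1, -0.132 to -0.104 in Hes6, -0.0529 to 0.0424 in Ell3, -0.098 to -0.00904 for DIOLs.S day 7 v 3, 1.05 to 1.18 for day 14 DIOLs.S v GV. The cause of the shifts under rescaling was not tested; the copy settings differ by the genes they hold. Rescaling moved the count of called members by over 1.5 times in 6 comparisons (25 in Nobox, 29 in Dynll1, 1 in Ybx3, 3 in Ccnk, 11 for DIOLs.S day 14 v 7 and 16 for DIOLs day 25 v 5), and summed TPM of all members became 25645 in day 11 and 32419 in day 13 wild type, 22496 in day 25, 8348 in matured DIOLs and 13132 in incompetent GV oocytes. Of 317 log2 changes of called members none changed sign, 50 lost their call under rescaling and 5 under the block. The fit over all libraries gave fewer of these changes: 272 stayed and 1 lost its call (Cox4i2 of DIOLs.S day 3 v 1, limma adjusted p = 0.0522). Leaving out single libraries weakened some changes of called members as well.

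Replicate numbers are shared between groups, but same-numbered libraries did not deviate together (correlations of -0.105 to 0.006 over the 3 GV pairs), so they share only a number. With the replicate block the calls of Ndufaf2 for day 25 DIOLs v GV (-0.94), Ndufa12 for matured DIOLs v GV (-0.93) and Ndufaf2 (-0.84), Ndufaf6 (-0.96) and Atp5g1 (0.95) for day 13 wild type v GV ended. Depth is unknown, since the values are TPM, and 2 libraries a group limit the precision.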
